A study of Mus musculus with 12 samples.

Results

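SINE windows are the stretches of 1000 bp, centred on accessible chromatin sites, whose centre the deposited annotation places on a short interspersed element (SINE) inside an intron or between genes. Of the 67822 windows in the H3K27ac table, 1911 met this rule, 1117 in introns and 794 between genes. They were grouped by the repeat family named in the annotation: 550 were B2, 475 MIR, 474 B4, 337 Alu (the family name under which mouse B1 elements are listed), 48 ID, 17 Deu and 10 tRNA. Within these 7 families the annotation named 34 elements. The comparison set was the 39451 intron and intergenic windows with no repeat and no CpG island at their centre, called repeat-free windows here. The choice used position alone and no tag count.

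The study profiled acetylation of lysine 27 on histone H3 (H3K27ac), a mark of active promoters and enhancers, in microglia of mouse forebrain, and its title names NLRP3, glutamine breakdown and Alzheimer's disease. Wild-type mice were of the C57BL/6N background, and the knockout mice, written Nlrp3-/-, carried the Cias1 knockout from Millennium Pharmaceuticals (Cias1 is an older name of Nlrp3, the sensor protein of an inflammasome). In both genotypes microglia were taken as CD11b+ cells on magnetic beads, a marker that other myeloid cells also carry, and the labels give neither the age nor the sex of the mice. Each genotype had 3 libraries of H3K27ac chromatin immunoprecipitation and 3 of input chromatin.

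SINEs are short retrotransposons that encode no protein and were copied by the machinery of LINE elements. B1 elements, like primate Alu, descend from the 7SL RNA of the signal recognition particle, whereas B2, ID and MIR elements descend from transfer RNA genes, and B4 joins B1-like and ID-like parts. MIR copies are ancient and shared among mammals, while B1 and B2 spread in rodents. Rodent B2 elements are known to have carried many binding sites for CTCF, the protein that holds chromatin loops, and B2 and B1 carry internal RNA polymerase III promoters.

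Sequence could be printed only where a RefSeq promoter (the 300 bases around a transcript start, build GRCm38.p6, the assembly of mm10) lay over the centre of a member window. That held for 5 of the 1911 windows, and 27 held such a promoter anywhere. The following 3 are shown because they run from strong to absent H3K27ac in wild type and come from the B2, B4 and MIR families. Their order is the reverse of the family medians given below, so they do not stand for their families. A second MIRb window, at Gm35808, is not shown and held 31, 25 and 36 wild-type H3K27ac tags against 5, 1 and 2 in input. Gm38832 starts in an intergenic B3A window (chr6:72161391-72162391) and its printed promoter is chr6:72161662-72161961 on the plus strand. Gm38730 starts in an intergenic B4A window (chr5:141064469-141065469) and its promoter is chr5:141064732-141065031 on the plus strand. B230206L02Rik starts in an intergenic MIRb window (chr11:94132892-94133892) and its promoter is chr11:94133206-94133505 on the plus strand. Each is read 5′ to 3′ and the capitals mark a match to a motif named after the sequences.
Gm38832: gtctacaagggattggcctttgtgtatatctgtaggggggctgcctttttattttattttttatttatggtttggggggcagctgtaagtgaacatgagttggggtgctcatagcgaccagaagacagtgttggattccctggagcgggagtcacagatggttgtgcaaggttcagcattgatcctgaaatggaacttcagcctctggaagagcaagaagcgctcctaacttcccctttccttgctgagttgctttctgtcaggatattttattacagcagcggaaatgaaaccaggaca
Gm38730: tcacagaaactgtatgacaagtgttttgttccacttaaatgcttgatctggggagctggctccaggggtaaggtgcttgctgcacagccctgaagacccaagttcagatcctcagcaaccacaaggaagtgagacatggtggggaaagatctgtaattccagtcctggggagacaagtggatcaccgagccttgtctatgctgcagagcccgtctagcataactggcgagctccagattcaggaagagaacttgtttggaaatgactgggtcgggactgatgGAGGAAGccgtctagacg
B230206L02Rik: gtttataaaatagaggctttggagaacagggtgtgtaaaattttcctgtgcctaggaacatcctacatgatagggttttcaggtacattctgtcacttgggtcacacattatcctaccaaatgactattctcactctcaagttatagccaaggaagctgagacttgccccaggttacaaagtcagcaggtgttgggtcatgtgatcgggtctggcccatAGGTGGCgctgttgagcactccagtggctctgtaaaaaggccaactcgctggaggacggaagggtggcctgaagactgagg

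The motifs searched on both strands were a short CTCF core, AGGNGGC, found in 29.4% of 32851 RefSeq promoters of the same length, a B box of RNA polymerase III promoters, GTTCGA, found in 2.53%, and a PU.1 site, GAGGAAG, found in 13.6%. PU.1 is the factor that specifies macrophages and microglia. No 2 matches overlapped: the CTCF core was at position 220 of the B230206L02Rik promoter and the PU.1 letters at position 283 of the Gm38730 promoter, counted from the 5′ end, and Gm38832 held none. A match is a description of letters, not a bound site. The B3A window at Gm38832 held 43, 35 and 53 wild-type H3K27ac tags against 3, 5 and 2 input tags. Its knockout libraries held 42, 49 and 20. The B4A window at Gm38730 held 15, 10 and 18 wild-type tags against 4, 4 and 5 in input. In the knockout that window held 10, 8 and 10 tags against 7, 4 and 1 in input. The MIRb window with the CTCF core held 1, 4 and 3 wild-type tags against 3, 4 and 3 in input, so in wild type no H3K27ac above input was detectable there. Its knockout libraries held 5, 17 and 20 tags, with 6, 1 and 0 in input.

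All 12 libraries were shallow per window. H3K27ac libraries held 3726550 to 5028129 tags and input libraries 3287009 to 6961590, and the median SINE window held 9 to 12 H3K27ac tags and 2 to 5 input tags. Between 251 and 506 SINE windows held no H3K27ac tag in a given library, and between 25 and 257 held no input tag. As a check of the labels, the window at the Nlrp3 promoter held 180, 180 and 195 wild-type H3K27ac tags, whereas the knockout libraries held 1, 0 and 16. A second Nlrp3 promoter window held 138, 91 and 119 wild-type and 17, 20 and 43 knockout tags, and knockout replicate 3 was the highest of the knockout libraries in both. Promoter windows of 12 microglia markers had a median ratio over input of 17.0 (wild type) and 15.0 (knockout). The 5 lists of other cells' markers that had a promoter window ranged from 0.989 to 3.37 and from 1.33 to 5.23. Among them, 2 windows of monocyte and neutrophil markers had 1.04 (wild type) and 3.32 (knockout) and 2 of border macrophage markers 1.01 and 2.50, and the part of such cells in the results was not tested. Wild-type replicate 1 held 12 H3K27ac tags and 1 input tag in windows of Y-linked genes, where the other H3K27ac libraries held 193 to 280 and the other inputs 43 to 112. It therefore stands apart from the rest, and values without it are given for the Me2 call and the tag shares, which moved.

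Among the 4 large families, the mark over input was lowest in B2 windows. Level over input is the ratio of group mean CPM (tags scaled to equal library totals, over all tags of a library), with 0.5 added to both. In wild type the median B2 window stood at 1.14 times input, against 2.53 times for B4, 2.97 for MIR, 2.99 for Alu and 2.44 for repeat-free windows. In the knockout the medians were 1.17, 2.91, 3.12, 3.16 and 2.66 in the same order. More than 2 times input was reached by 153 of 550 B2 windows in wild type (27.8%), by 277 of 474 B4 (58.4%), by 293 of 475 MIR (61.7%) and by 211 of 337 Alu windows (62.6%), against 56.3% of repeat-free windows. Above 8 times input stood 31 B2 windows, 5.64% of the family, and 66 Alu windows, 19.6% of theirs. All SINE windows together had a wild-type median of 2.07, below the 2.42 of 1674 LINE windows and the 2.21 of 3671 LTR windows chosen in the same way. The 1361 SINE windows outside B2, a subset taken after the B2 value was seen, had a median of 2.81.

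**Figure D1:**
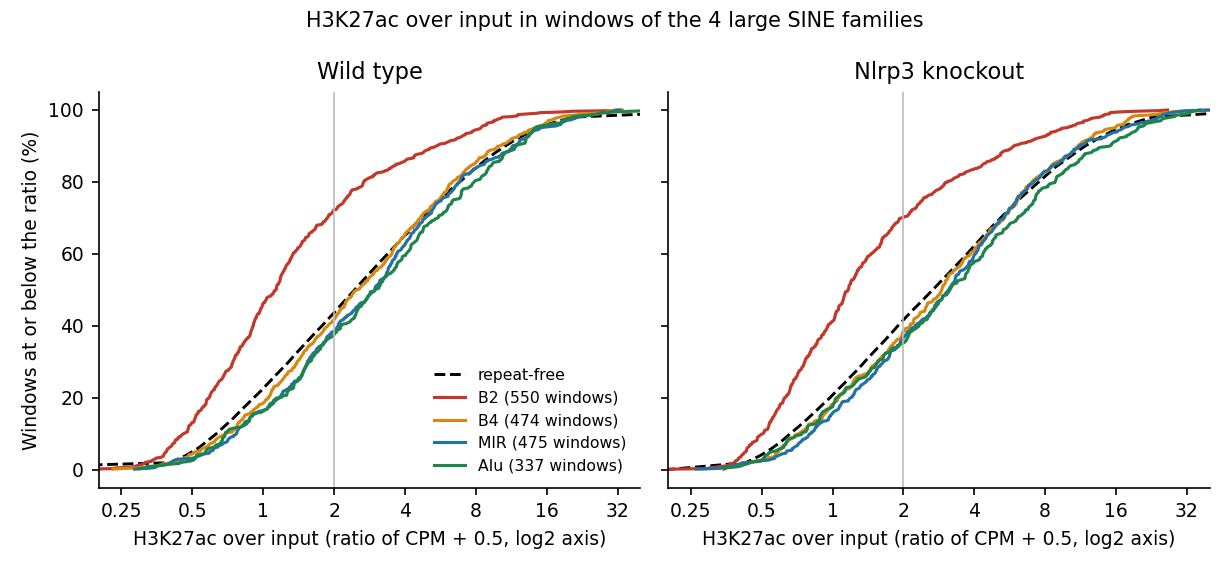
Cumulative share of windows (y axis, percent) at or below each level of H3K27ac over input (x axis, ratio of CPM with 0.5 added, log2 axis) for the 4 largest SINE families (coloured lines) and repeat-free windows (dashed), in wild type (left) and knockout (right), with a grey line at 2 times input. The B2 line lies to the left of the others in both genotypes, with 27.8% of its wild-type windows above 2 times input against 56.3% of repeat-free windows.

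The smaller families were spread on both sides of these values. The 48 ID windows, whose elements derive from the transfer RNA-like BC1 gene, had the highest family medians, 3.84 (wild type) and 4.44 (knockout). The 17 Deu windows, all AmnSINE1, an element shared among amniotes, had medians of 1.00 and 1.78. The 10 tRNA windows had medians of 2.55 and 2.30. These families are too small to be read beyond those values.

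Per library, the B2 level varied little between replicates and was the lowest of the 4 large families in every H3K27ac library. Mean CPM over B2 windows, divided by that of the genotype's inputs, was 2.60, 2.47 and 2.75 in wild-type replicates 1 to 3. Knockout replicates gave 3.00, 2.85 and 2.67. Repeat-free windows gave 7.14, 6.33 and 6.89 (wild type), then 8.26, 8.04 and 6.92 (knockout). MIR windows gave 8.03, 7.09 and 7.56 in wild type, Alu windows 6.46, 5.64 and 5.94, and B4 windows 6.42, 6.15 and 6.27. Every B2 value lay below every value of these other classes.

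Position and distance to a transcription start site (TSS) differ between families, so each library's mean CPM in a family was set against repeat-free windows of the same mix of position (intron or intergenic) and distance (under 10 kb, 10 to 50 kb, 50 to 100 kb and over 100 kb). In H3K27ac libraries B2 windows stood at -1.05 ± 0.059 on the log2 scale (SD, n = 6), and in input libraries at 0.36 ± 0.050 (SD, n = 6). The H3K27ac libraries ranged from -1.14 to -0.98 and the inputs from 0.28 to 0.41, with no overlap. The difference, -1.41, puts H3K27ac over input in B2 windows at 37.7% of the matched repeat-free level (exact permutation test over 6 H3K27ac and 6 input libraries, two-sided p = 0.00216, the smallest this design can give). It was -1.38 in wild type and -1.44 in the knockout, and the difference between genotypes was not tested.

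The other families stood much closer to repeat-free windows. By the same measure and exact test, at the same p of 0.00216 each, MIR windows stood 0.11 above matched repeat-free windows on the log2 scale (108% of their level), B4 windows at -0.14 (91.0%) and Alu windows at -0.26 (83.4%), and all SINE windows together at -0.39 (76.3%). In Alu windows both terms were above 0, with H3K27ac libraries at 0.24 ± 0.047 and inputs at 0.51 ± 0.079 (SD, n = 6). The Alu sign turned to 0.39 when medians over windows replaced means, to 0.20 without windows that overlap another, and to 0.11 without windows of more than 3 CPM in input. It moved the other way in windows that stand in both site lists, to -0.42, and in windows with a peak score at or above the median of all windows, to -0.75. The B4 sign turned to 0.10 with medians (exact p = 0.271), and without overlapping windows the B4 value was -0.045 and no longer passed (exact p = 0.340). The MIR value was 0.33 with medians.

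Between families, all 6 pairs among B2, B4, MIR and Alu passed the exact test after Benjamini-Hochberg adjustment, and 5 did without matching by position and distance, with medians over windows, or without windows above 3 CPM in input. B2 stood 1.52 (SE 0.030) below MIR on the log2 scale, 1.27 (SE 0.035) below B4 and 1.15 (SE 0.036) below Alu, each with an adjusted exact p of 0.00260. MIR stood 0.25 above B4 (SE 0.024) and 0.37 above Alu (SE 0.034), with the same adjusted exact p, and B4 0.13 above Alu (SE 0.037, adjusted exact p = 0.00866), the pair lost without matching (0.080, adjusted exact p = 0.052). The MIR to Alu and B4 to Alu differences turned sign under the 3 alternatives that turn Alu, whereas the 3 B2 differences lay between -1.65 and -0.74 over the 4 alternatives that leave windows out.

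**Figure D2:**
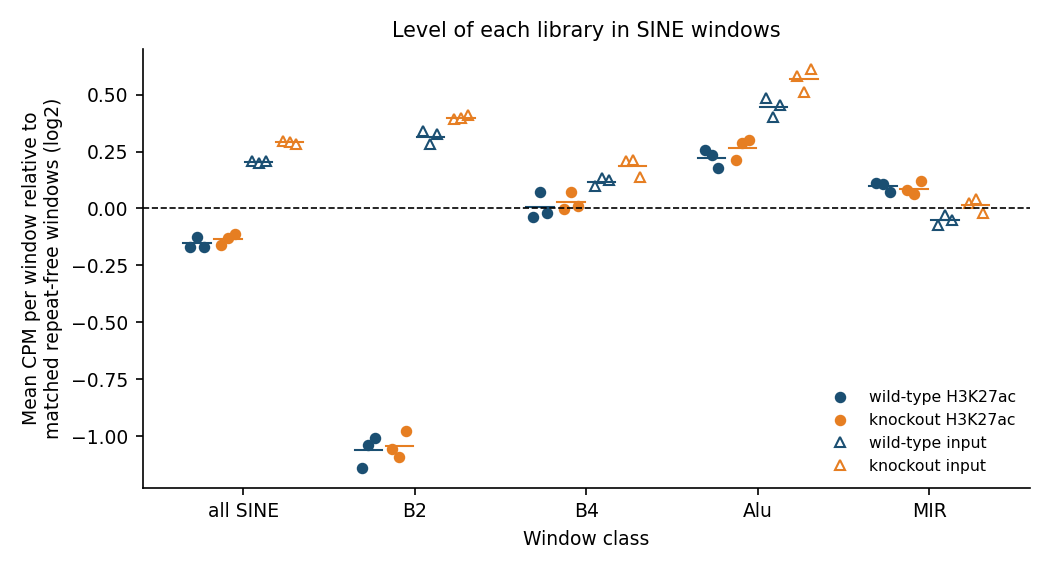
Mean CPM per window in each library relative to repeat-free windows of the same position and distance (y axis, log2), for all SINE windows and the 4 large families (x axis), with circles for H3K27ac, triangles for input, blue for wild type, orange for knockout and a short line at each mean of 3 libraries. In B2 windows the H3K27ac libraries lie between -1.14 and -0.98 and the inputs between 0.28 and 0.41.

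Input over SINE windows was itself above that of matched repeat-free windows, by 0.25 ± 0.047 on the log2 scale (SD, n = 6). In wild-type inputs it was 0.20 to 0.21 and in knockout inputs 0.28 to 0.30, with no overlap. For B2 the values were 0.28 to 0.34 and 0.39 to 0.41. The differences given per genotype include this term. The higher relative values in knockout inputs do not mean more input tags over SINE windows. Mean input CPM over SINE windows was 0.94 in wild type and 0.88 in the knockout, and single libraries overlapped. Over all repeat-free windows, without matching, mean input CPM was 0.82 and 0.72, so the comparison set moved too. The share of input window tags, given below, is over all windows and ran the other way. A small group of windows had far higher input: 28 of the 1911 had a mean above 3 CPM, 19 of them on the unplaced contig JH584304 (nearest gene Pisd-ps3), 6 on chromosome 11 near Sfi1 and Eif4enif1, 2 on chromosome 15 near Ly6c2 and 1 on chromosome 19 near Fbxw4. Without such windows the SINE difference was -0.22 and the B2 difference -1.16. In windows that stand in both site lists the B2 difference was -1.52, and in windows with a peak score at or above the median of all windows (891) it was -1.49.

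The low B2 level was seen in introns and between genes. In introns under 10 kb from a TSS, 114 B2 windows had a wild-type median ratio of 1.17, 115 MIR windows 3.47 and 9114 repeat-free windows 3.38. In introns at 10 to 50 kb the medians were 1.18 for 138 B2 windows, 3.35 for 129 MIR windows and 2.61 for repeat-free windows. Between genes under 10 kb from a TSS, 128 B2 windows had a median of 1.09 and repeat-free windows 1.98, and at 10 to 50 kb 115 B2 windows had 0.908 and repeat-free windows 1.91. The exception was a group of 16 intergenic B2 windows at 50 to 100 kb, whose median of 2.19 lay above the repeat-free 1.89. Low peak scores were more frequent in the family, since 139 of 550 B2 windows (25.3%) reached the median peak score against 46.2% of repeat-free windows. The score is not read here as the strength of a site. Within windows at or above that score, B2 had a median of 1.48 times input and repeat-free windows 3.73.

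Among the elements with at least 50 windows, the 3 of the B2 family held the lowest wild-type medians. B3, with 312 windows, stood at 0.990 times input, B2_Mm2 (58 windows) at 1.01 and B3A (177 windows) at 1.32. The next was RSINE1 of the B4 family at 2.05, followed by the MIR element itself at 2.47, ID_B1 at 2.52, the B4 element itself at 2.67, B4A at 2.71, MIRb at 2.78, PB1D10 of the Alu family at 3.10, MIR3 at 3.31 and MIRc at 3.35. In the knockout the same 3 elements were lowest, at 1.09, 1.06 and 1.39 in the order B3, B2_Mm2, B3A. Relative to matched repeat-free windows, B3 stood at 34.1%, B2_Mm2 at 35.8% and B3A at 45.0%, against 122% for MIR3, and the quartiles of neighbouring elements outside B2 overlapped widely.

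**Figure D3:**
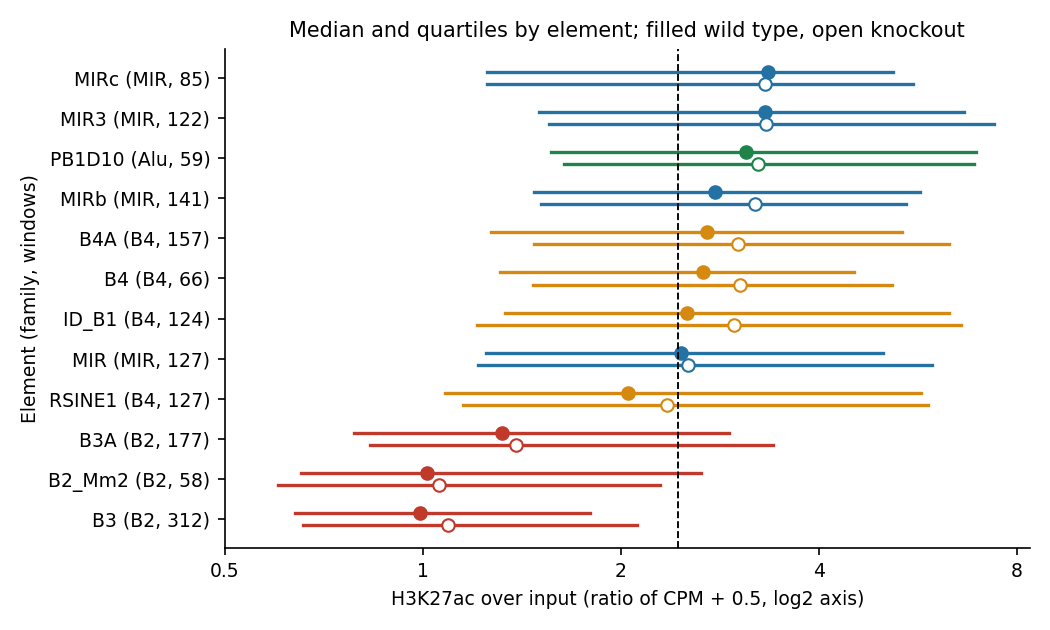
Median (circle) and quartiles (line) of H3K27ac over input (x axis, ratio of CPM with 0.5 added, log2 axis) for the 12 elements with at least 50 windows (y axis, with family and number of windows), filled for wild type and open for knockout, with a dashed line at the wild-type repeat-free median of 2.44. The 3 B2 elements lie at medians of 0.990 to 1.32 in wild type and the other 9 at 2.05 to 3.35.

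Window by window, H3K27ac over input was tested with edgeR on all windows, with libraries scaled to their total tags. Without a filter on low counts, 819 of 1911 SINE windows were called above input in wild type (42.9%). The share was 52.5% of all windows, promoters included, 46.8% of repeat-free, 45.8% of LINE and 42.7% of LTR windows. In the knockout 879 SINE windows were called (46.0%), against 55.8% of all windows and 50.2% of repeat-free windows. In the B2 family 116 of 550 were called above input in wild type (21.1%) and 129 in the knockout (23.5%). MIR had 248 of 475 (52.2%), Alu 180 of 337 (53.4%), B4 235 of 474 (49.6%) and ID 31 of 48 (64.6%) in wild type. Called below input were 41 B2 windows in wild type (7.45%) and 46 in the knockout (8.36%). The shares were 2.35% and 2.55% of all windows, and 2.78% and 3.08% of repeat-free windows. With the filter, which keeps windows by their tags, 698 SINE windows were tested in wild type and 660 called above input, where 98.6% of all tested windows were called, and 716 of 748 in the knockout, where the share was 99.0%. Under TMM normalization, which centres on the enriched windows themselves, the balance turned, with 69 of 843 tested SINE windows called above input and 157 below in wild type, and 101 of 964 above and 178 below in the knockout. Over all tested windows, TMM called 7064 of 33047 in wild type and 8787 of 36917 in the knockout, both directions together. The turn is therefore not read as a trait of SINE windows.

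Single SINE windows stood far above input. Among those with a mean of at least 20 wild-type tags, a B1_Mur4 window (Alu family) upstream of Golga5, a Golgi structure gene, stood at 38.5 times input. It held 155, 122 and 181 wild-type tags against 173, 179 and 124 knockout tags, so the genotypes overlapped. Its wild-type inputs held only 2, 2 and 2 tags, and in the knockout it stood at 26.9 times input.

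Members of the other families reached similar heights. An RSINE1 window (B4 family) 8431 bp upstream of Mcl1, an inhibitor of apoptosis, stood at 33.5 times input, with 184, 186 and 217 wild-type tags against 181, 177 and 136. A second RSINE1 window in intron 1 of 9 of Plek, which encodes the phagocyte protein pleckstrin, held 244, 314 and 340 tags and 344, 350 and 274, and stood at 29.5 times. MIR3 windows near 4930459C07Rik, Snx29, Ppp1r2 and Dock4 stood at 32.8, 30.9, 30.7 and 29.5 times input. In the B2 family the highest were a B3A window in intron 3 of 11 of Nmt1, a myristoyltransferase, at 31.7 times input with 98, 122 and 203 wild-type tags against 100, 138 and 38, and a B3A window in intron 14 of 17 of Acoxl, nearest to Bcl2l11, at 20.2 times with 65, 78 and 134 against 74, 77 and 93. These windows were picked by their wild-type ratio, and their wild-type inputs held 2 to 12 tags per library. In the knockout the Mcl1 and Plek windows stood at 27.4 and 40.2 times input. The 4 MIR3 windows stood at 21.3, 22.7, 23.5 and 40.1 in the order above, and the 2 B3A windows at 14.3 and 14.1. None of these windows was called between genotypes (edgeR).

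The genotypes were set against each other in an edgeR fit over the whole table, with TMM normalization and a filter on low counts that kept 40370 windows. Of these, 24 were called (0.0595%), 10 of them higher in the knockout (0.0248%). The filter kept 997 SINE windows of 1911, among them 166 B2 (30.2% of the family), 281 MIR, 279 B4, 221 Alu, 38 ID, 6 Deu and 6 tRNA. A single SINE window was called, and it was higher in the knockout. At an unadjusted edgeR p under 0.05 stood 53 SINE windows, 29 higher and 24 lower, or 5.32% of those tested against 4.69% of all tested windows. The 3 knockout libraries did not overlap the 3 wild-type libraries in 101 SINE windows, or 10.1% against a background of 10.1%. They were higher in 56 (5.62% of those tested, background 5.19%) and lower in 45 (4.51%, background 4.91%). The median log2 difference was 0.03 over tested SINE windows, 0.07 over B2, 0.00 over all tested windows, and the quartiles of SINE windows were -0.29 and 0.36.

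The called window was a B4A element in intron 1 of 15 of Me2 (chr18:73812300-73813300, 2592 bp from the TSS), whose product, a malic enzyme, makes pyruvate from malate in mitochondria. The site stood in the knockout list only. Wild-type libraries held 5, 4 and 12 tags there and knockout libraries 60, 77 and 66, so the groups were far apart. On total tags this is 1.69 ± 1.02 CPM (SD, n = 3) against 14.0 ± 1.15 (SD, n = 3), and the log2 difference was 3.04 with SE 0.48 (adjusted p = 0.00485 in edgeR). Wild-type inputs held 2, 2 and 2 tags and knockout inputs 8, 4 and 5, or 0.479 and 1.17 CPM. Over its own input the window stood at 2.24 times (wild type) and 8.65 times (knockout). In bulk chromatin, more cells with the mark and more of the mark per cell cannot be told apart. The call was lost without wild-type replicate 1 (2.90, edgeR adjusted p = 0.0534), without wild-type replicate 2 (2.76, edgeR adjusted p = 0.0905) or without knockout replicate 2 (3.01, edgeR adjusted p = 0.0617).

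**Figure D4:**
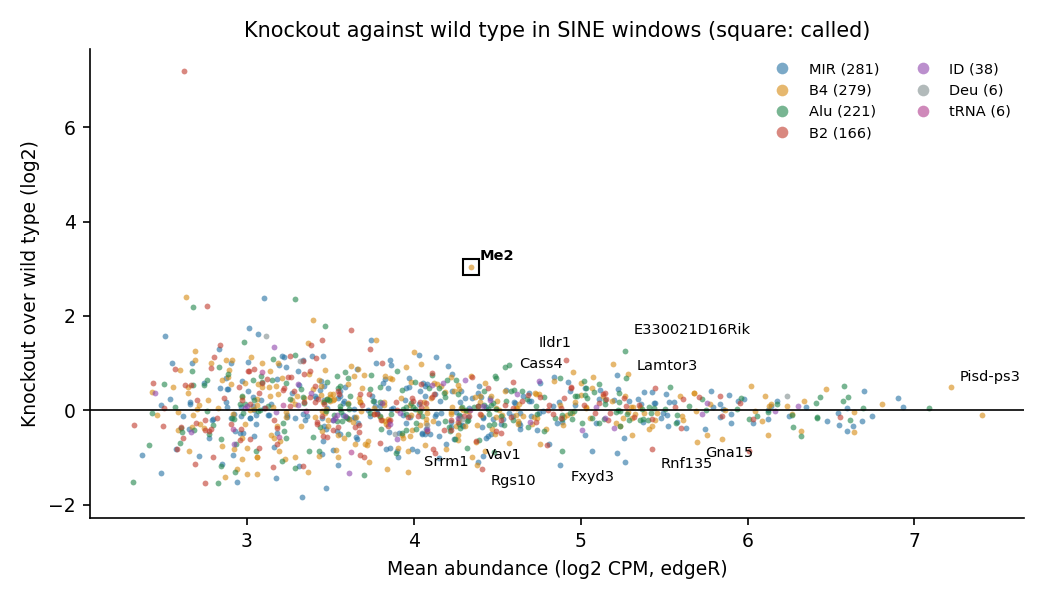
Knockout over wild type (y axis, log2, edgeR) against mean abundance (x axis, log2 CPM, edgeR) for the 997 SINE windows that the filter kept, 1 point a window, coloured by family, with the windows of smallest p labelled by their nearest gene. The Me2 window, at 3.04, is the only one called (square), and the B2 point above it at 7.20 has no wild-type tag.

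The largest fitted difference, singled out after its value was seen, was a B3 window of the B2 family in intron 26 of 27 of Myo1e, a class I myosin (chr9:70391412-70392412, nearest annotated gene Mir5626). No wild-type library held a tag there (0, 0 and 0) and the knockout libraries held 17, 24 and 18, with inputs of 5, 0 and 0 (wild type) and 2, 5 and 3 (knockout), and it too stood in the knockout list only. Against a floor of 3 tags over the wild-type group it was at least 16.9-fold higher, and it did not pass the test (edgeR adjusted p = 0.141). It passed with DESeq2 (adjusted p = 0.00638) and with edgeR without the filter on low counts (adjusted p = 0.0199). Among the windows that the filter kept, the largest fitted drop was a MIR window in intron 4 of 4 of Lemd1 with 9, 34 and 31 wild-type and 13, 1 and 9 knockout tags, where the groups overlapped (edgeR adjusted p = 0.998). A larger drop stood in a window that the filter left out, also singled out after its value was seen, an intergenic B4 window nearest Scn10a (chr9:119736731-119737731), a sodium channel gene. It held 12, 8 and 29 wild-type tags and 0, 0 and 0 knockout tags, with inputs of 0, 4 and 1 (wild type) and 2, 2 and 1 (knockout), and stood in the wild-type list only. Against a floor of 3 tags over the knockout group it was at least 19-fold lower in the knockout, and it passed with DESeq2 (adjusted p = 0.00793) and with edgeR without the filter (adjusted p = 0.0245).

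Of the abundant SINE windows whose groups did not overlap, those with the smallest p and higher knockout values had no adjusted p under 0.25 apart from Me2. An intergenic B1F window (Alu family) nearest E330021D16Rik (chr6:136464728-136465728) held 32, 42 and 39 wild-type and 124, 122 and 71 knockout tags, a difference of 1.26 (SE 0.31, edgeR adjusted p = 0.253), which passed with DESeq2 (adjusted p = 0.0196). A B3A window in intron 3 of 7 of Ildr1, a tricellular junction receptor, held 25, 28 and 43 tags against 84, 70 and 78 (1.07, SE 0.34, edgeR adjusted p = 0.760). The next were a B4A window on the contig near Pisd-ps3 with 175, 187 and 271 tags against 308, 356 and 361, a B4A window in intron 4 of 8 of Dapp1 with 40, 64 and 39 against 92, 107 and 86, and an ID_B1 window 1337 bp upstream of Cass4, a scaffold of cell adhesion, with 38, 39 and 34 against 63, 96 and 69. Input at the Pisd-ps3 window was 58, 52 and 41 tags (wild type) and 110, 45 and 61 (knockout), the highest of these windows.

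Among the windows that the filter kept, edgeR called none lower in the knockout. A MIRb window upstream of Fxyd3, a regulator of ion transport, held 65, 62 and 138 wild-type tags and 41, 55 and 46 knockout tags (-1.10, SE 0.33, edgeR adjusted p = 0.599), and the difference was -0.68 without wild-type replicate 3. An intergenic B3A window nearest Rgs10 (chr7:128359449-128360449), an inhibitor of G protein signalling present in microglia, held 37, 54 and 56 tags against 26, 25 and 21 (-1.24, SE 0.40, edgeR adjusted p = 0.777), with input at 2, 1 and 1 tags (wild type) and 7, 2 and 11 (knockout). A MIRb window nearest Srrm1, a splicing coactivator, held 41, 51 and 47 against 27, 29 and 20. Others were a B3 window in intron 6 of 10 of Adap2 with 60, 112 and 106 against 70, 71 and 42, and ID_B1 windows in the first introns of Vav1, a guanine exchange factor of immune receptors, with 28, 34 and 81 against 23, 36 and 15, and of Gna15, a G protein subunit of blood cells, with 98, 119 and 103 against 84, 59 and 87. The tag counts of the Adap2 and Vav1 windows overlap between genotypes and only their CPM do not. The Vav1 difference was -1.17, and -0.61 without wild-type replicate 3.

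**Figure D5:**
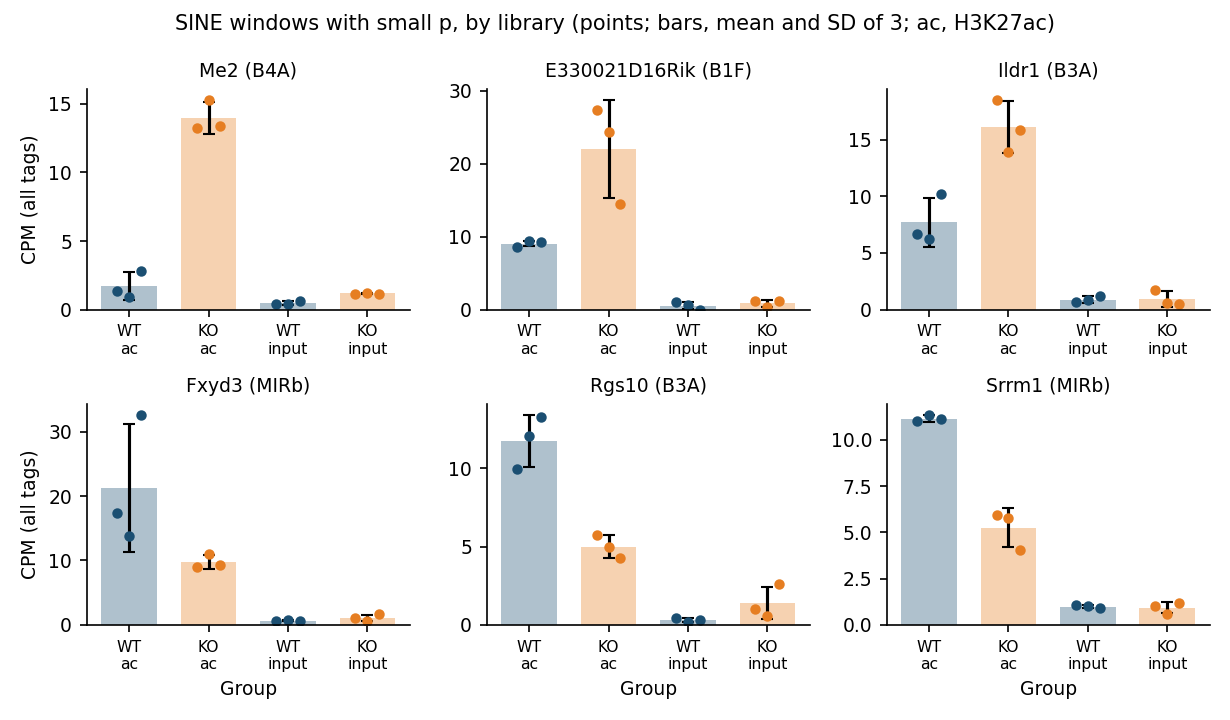
CPM on all tags (y axis) in each library (points), with the mean and SD of 3 libraries (bars), for wild-type H3K27ac, knockout H3K27ac and both inputs (x axis), in 6 SINE windows named by nearest gene and element. In the Me2 window the knockout libraries average 14.0 CPM and wild type 1.69, and in the other 5 windows the groups do not overlap but no adjusted p passed the threshold.

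Over the whole class the share of H3K27ac tags did not separate the genotypes. SINE windows held 2.22%, 2.23% and 2.15% of the H3K27ac window tags in wild-type replicates 1 to 3 and 2.21%, 2.24% and 2.25% in the knockout (exact permutation test, two-sided p = 0.40, where the smallest possible is 0.10). For B2, MIR, B4 and Alu windows the exact two-sided p was 0.60, 0.90, 0.50 and 0.20. The B2 share was 0.335% ± 0.010 in wild type and 0.341% ± 0.014 in the knockout (SD, n = 3). On the log2 scale, knockout over wild type, the B2 share was 0.022 and the MIR share -0.0063, and without wild-type replicate 1 they were -0.0024 and 0.015. The share of input window tags did not overlap between genotypes for all SINE windows, at 1.973% to 2.023% in wild type and 1.887% to 1.971% in the knockout, nor for MIR (0.414% to 0.419% against 0.394% to 0.398%) and B4 (0.464% to 0.469% against 0.442% to 0.450%). Each of these 3 had an exact two-sided p of 0.10, the smallest possible (adjusted p = 0.167 over the input shares), and all 3 turned sign without windows above 3 CPM in input. The input share of repeat-free windows was not tested. Their mean input CPM did not overlap either, at 0.781 to 0.849 in wild type and 0.696 to 0.750 in the knockout. Lower knockout input was therefore not particular to SINE windows.

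Near genes of microglial pathways, SINE windows differed in level from list to list, and no list but that of glutamine genes held a called window. Of 36 homeostatic microglia genes, 15 were nearest to a SINE window, and their 18 windows had median ratios over input of 4.43 (wild type) and 5.42 (knockout), where all SINE windows had 2.07 and 2.28. A B1F window near Marcks held 57, 93 and 59 wild-type and 62, 66 and 80 knockout tags, a MIRb window 12435 bp from the TSS of Tmem119 held 31, 44 and 45 against 79, 83 and 50, and a B3A window upstream of Selplg, the ligand of P-selectin, held 18, 43 and 68 against 32, 39 and 37. The edgeR test called 0 of the 15 tested windows, and 0 had an unadjusted p under 0.05.

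Lineage factors, the transcription factors that set microglial identity, had 18 SINE windows near 13 of 24 genes, none of them B2, with medians of 3.63 and 3.44. A MIR3 window upstream of Ikzf1, a lymphoid and myeloid factor, held 68, 91 and 102 wild-type and 79, 96 and 81 knockout tags and stood at 17.6 times input, and a B1F1 window in intron 2 of 8 of Etv6 held 61, 72 and 88 against 78, 84 and 64. The edgeR test called 0 of the 12 tested, and 0 had an unadjusted p under 0.05. The 3 interferon response windows were all B2 and had a wild-type median ratio of 0.721.

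Disease-associated microglia genes had 11 windows with medians of 1.90 and 1.94 times input, and 0 of 6 tested were called. A MIRb window near Cd9, a tetraspanin, held 63, 55 and 67 against 108, 96 and 54 tags. Inflammasome and IL-1 genes had 5 windows with medians of 4.15 and 5.09. A MIRb window 4139 bp from the TSS of Il1a, the gene of the cytokine IL-1 alpha, held 56, 52 and 29 wild-type and 94, 115 and 63 knockout tags (0.74, SE 0.33, edgeR adjusted p = 0.998). An RSINE1 window in intron 5 of 9 of Nlrp3 itself held 31, 29 and 29 against 25, 44 and 5 tags, so tags remained there in all 3 knockout libraries.

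Glutamine and glutamate genes had 10 SINE windows near 10 of 43 genes, with median ratios over input of 2.19 (wild type) and 3.84 (knockout). Between genotypes 7 were tested, of which 3 were higher in the knockout, Me2 among them. The median log2 difference over the 7 was -0.14 (edgeR). The Me2 window was the only one called, and it is the same window as above. Its gene was placed in the list with its earlier result known. A B3 window in intron 2 of 8 of Got1, the cytosolic aspartate aminotransferase, held 67, 101 and 130 wild-type and 159, 158 and 72 knockout tags. A B1F window near Psat1, of serine synthesis, held 55, 48 and 60 against 65, 94 and 84, and a B3 window in intron 2 of 22 of Ogdh, a subunit of the ketoglutarate dehydrogenase complex, held 35, 30 and 59 against 59, 40 and 31.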

How the data were processed

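The labels give 4 groups of 3 libraries, taken from genotype, antibody and title. They do not say whether replicates are separate animals, so p-values may measure technical spread. Raw tag counts were deposited by the authors, per the file headers counted unadjusted with HOMER in windows of 1000 bp of mm10 (HOMER, DESeq2 and mm10 are also in the submitters' processing notes). The sources used here name no aligner, duplicate handling, rule for reads that map to several repeat copies, or site caller. A scaled copy of the table was not used. The members and gene lists were chosen with earlier results of these data known.

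Knockout and wild type were fitted with edgeR 4.0.16 (R 4.3.3; quasi-likelihood, TMM, filterByExpr) and H3K27ac against input of a genotype with total tags as library size. Benjamini-Hochberg adjustment ran over all tested windows, and "called" means an adjusted p under 0.05. Standard errors of single windows are the absolute log2 difference divided by the root of its F statistic, and those between families come from the variance over libraries. CPM used total tags of the headers, so a count of few tags has wide counting error, and no molecular identifiers are described. Family levels and tag shares were tested by exact permutation over libraries, without pairing. These p-values, and the standard errors between families, measure spread between libraries over the same windows. They do not measure how far a family value depends on which windows it holds. Windows overlapping another (612 members) share tags with it.

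Named windows were the called ones, up to 6 per direction of smallest p (abundance at or above the median, groups not overlapping), the 8 highest wild-type levels over input and 2 per large family, and up to 4 per gene list by tags. A window that this rule names is not reported here. Intron hosts came from RefSeq accessions.

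On simulated data (67822 windows) the knockout fit recovered 26% of 100 windows changed 2-fold and 100% of 100 changed 4-fold, and the wild-type input fit 20% and 99%. The changed windows were drawn only above a floor on mean tags, and all counts had the same fixed dispersion (spread beyond counting error). Recovery in sparser windows was not simulated. Over windows, same-numbered libraries did not deviate together (correlations of -0.0013 to 0.0079), and the main tests did not use numbers as pairs. With few input tags a window, these correlations cannot exclude pairing. Wild-type replicate 1 had few Y-linked tags in both H3K27ac and input, so its same-numbered libraries may share a source. The replicate block treats the numbers as pairs. Alternatives were DESeq2 1.42.0, other scaling and filters, leaving out libraries, a replicate block, no matching, medians, and subsets of windows.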

Additional observations from a re-analysis of the deposited data

How the results depend on the processing

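The B2 difference from repeat-free windows kept its direction under every alternative run, and between -1.42 and -1.39 when single libraries were left out. All SINE windows lay between -0.40 and -0.38 without single libraries. With 1 genotype alone the SINE value was -0.36 (wild type) and -0.42 (knockout), each at an exact p of 0.10, the smallest 3 against 3 libraries allow, so 0 of 6 family pairs could pass. With medians over windows Alu turned to 0.39, B4 to 0.10, MIR minus Alu to -0.062 and B4 minus Alu to -0.29. Without overlapping windows the Alu values were 0.20, -0.10 and -0.25 in the same order, and without windows above 3 CPM in input (an alternative chosen after seeing the data, as were the subsets by site list and peak score) 0.11, -0.027 and -0.18. With medians, without windows above 3 CPM and without matching, 5 of 6 family pairs passed. The cause was not tested.

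The knockout fit called 1 SINE window, 4 with DESeq2 (Me2, Mir5626 and E330021D16Rik higher, Scn10a lower in the knockout), 3 with no filter (Me2, Mir5626 and Scn10a, in the same directions) and 0 to 1 without single libraries. Calls over all windows rose alike, from 24 of 40370 to 70 of 67822 with DESeq2 and 68 of 67051 with no filter. They were 10 to 29 without single libraries. Unadjusted edgeR p under 0.05 was met by 46 to 67 SINE windows without single libraries, where 1080 to 1104 were tested. Calls above input fell from 660 to 69 in wild type and from 716 to 101 in the knockout under TMM, and were 305 and 341 when overlapping windows were not counted. Over all windows, both directions together, calls also fell under TMM, from 29882 to 7064 in wild type and from 31263 to 8787 in the knockout. Leaving out single libraries gave 716 to 783 and 780 to 841 SINE windows above input.

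With the replicate block, 1 SINE window was called between genotypes (Me2, edgeR adjusted p = 0.0139), 658 and 717 above input, and the SINE difference of -0.39 had an exact sign-flip p of 0.031. Over all windows that block called 21 of 40370 between genotypes. Against input, both directions together, it called 29829 of 30163 in wild type and 31258 of 31433 in the knockout. Log2 shares, knockout over wild type, lay between -0.073 and 0.048. As shares of all tags of the library the input values were -0.11 (all SINE), -0.11 (B2), -0.13 (MIR), -0.12 (B4) and -0.069 (Alu). Signs turned elsewhere. Without overlapping windows B2 H3K27ac went to -0.015, and input to 0.012 (MIR), 0.029 (B4) and 0.080 (Alu). Without windows above 3 CPM input went to 0.030 (all SINE), 0.075 (MIR), 0.030 (B4) and 0.043 (Alu). Without single libraries the shares ranged from -0.0087 to 0.049 (B2 H3K27ac), from -0.027 to 0.015 (MIR H3K27ac) and from -0.059 to 0.026 (Alu input). Depth limits single windows: the median SINE window held 9 to 12 H3K27ac tags.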
